A study of Drosophila melanogaster with 2 samples.

Results

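The gene *for* (foraging, FBgn0000721) was described through every place where an Odd chromatin immunoprecipitation peak had its summit inside the gene or within 5 kb of either end. Odd (odd skipped) is a zinc finger transcription factor of the embryo, and its own gene lies 15318 bp beyond the 3′ end of *for* on chromosome arm 2L. The gene was chosen on its ranks in these peak lists, so the ranks, signals and counts below are a description, and no test was made. It is 1 of 13945 protein-coding genes on the 6 chromosome arms that held peaks. Of the 4291 summits in the authors' thresholded peak list, 6 fell to it. That list is called the IDR list here, after the irreproducible discovery rate by which peaks from replicates are compared.

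The samples were 2 biological replicates of a single group, each a ChIP-seq of whole Drosophila melanogaster embryos of mixed sex, aged 0 to 16 h. The embryos came from a transgenic line that stably expresses Odd with enhanced GFP at its C-terminus, and the fusion was immunoprecipitated with an antibody against GFP from chromatin sheared to 200 to 800 bp. There was no untagged or mutant group, the control library was not analysed here, and the sources used here do not give the number of reads. Whole embryos of many stages were pooled in each sample, so binding in fewer cells and weaker binding in more cells cannot be told apart. The sources used here also do not say how much DNA around *odd* the tagged transgene carries.

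The product of *for* is a cGMP-dependent protein kinase, an enzyme that phosphorylates its targets when cyclic GMP binds its regulatory end. In Drosophila the gene is best known for natural rover and sitter variants, whose larvae travel different distances while feeding. It is transcribed from several promoters, and its transcripts differ in their 5′ exons.

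In the annotation, *for* covered 34880 bp of the minus strand, at chr2L:3622074-3656953 of the dm6 build, with 13 transcripts from 4 start sites. The start site farthest upstream (start 1, position 3656953) served transcripts RA, RI and RM. Start 2 lay 10815 bp downstream of it, at 3646138, and served RH and RN. Start 3 lay a further 6218 bp downstream, at 3639920, and served RL alone. Start 4, at 3632154, was 24799 bp downstream of start 1 and served the remaining 7 transcripts, RC, RD, RE, RG, RJ, RK and RO. These are annotated starts, and which of them were in use in these embryos was not measured.

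The 3 strongest summits are shown by their sequence, 100 bp to either side of the summit, together with a weaker summit that shares a word with 2 of them. The letters come from the dm6 genome and are written 5′ to 3′ on the minus strand, in the direction of *for* transcription. Capitals mark 2 words, CGATA and TATTGGTA (the reverse complement of TACCAATA), which are taken up again after the signal values.
Rank 22, upstream of start 4, chr2L:3632421-3632621: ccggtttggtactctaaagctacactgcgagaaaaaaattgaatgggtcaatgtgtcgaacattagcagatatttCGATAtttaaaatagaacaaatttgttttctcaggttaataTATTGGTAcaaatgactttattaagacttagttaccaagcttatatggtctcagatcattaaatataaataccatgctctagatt
Rank 89, downstream of start 1, chr2L:3655723-3655923: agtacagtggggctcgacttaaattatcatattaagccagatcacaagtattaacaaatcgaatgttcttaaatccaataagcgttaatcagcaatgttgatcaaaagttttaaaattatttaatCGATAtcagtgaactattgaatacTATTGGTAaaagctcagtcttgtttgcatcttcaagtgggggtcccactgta
Rank 139, downstream of start 4, chr2L:3628889-3629089: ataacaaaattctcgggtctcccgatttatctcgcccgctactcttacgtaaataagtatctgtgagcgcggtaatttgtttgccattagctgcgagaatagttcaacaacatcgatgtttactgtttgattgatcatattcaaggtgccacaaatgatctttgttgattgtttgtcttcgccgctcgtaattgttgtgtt
Rank 3149, farther upstream of start 4, chr2L:3635551-3635751: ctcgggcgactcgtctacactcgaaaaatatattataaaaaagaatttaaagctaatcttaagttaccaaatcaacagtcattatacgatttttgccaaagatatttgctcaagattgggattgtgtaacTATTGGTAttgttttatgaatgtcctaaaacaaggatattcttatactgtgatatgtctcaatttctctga

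Each summit is described by the signal that the authors' peak caller gave it, its rank by that signal, and its place in the gene. Signals from the pooled list and from the replicate lists are not on a common scale, so they are compared as ranks, with rank 1 the strongest. The strongest summit of *for* lay at 3632521, in a peak at chr2L:3632298-3632777, 367 bp upstream of start 4. Its signal was 1508 in the pooled data, rank 22 of 4291, against a median of 219 over the IDR list. It was 727 in replicate 1, rank 30, and 779 in replicate 2, rank 14. Both replicates therefore placed it near the top of lists of 30000 peaks each. The site precedes the start of the 7 shorter transcripts and lies in an intron of 6 longer ones.

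The next strongest summit lay at 3655823, in a peak at chr2L:3655644-3655991, 1130 bp downstream of start 1. Its signal was 1000.4 in the pooled data (rank 89), 492 in replicate 1 (rank 108) and 518 in replicate 2 (rank 68). It was intronic in the 3 transcripts that begin at start 1, 238 bp upstream of their next exon.

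The summit ranked 139 lay at 3628989, in a peak at chr2L:3628777-3629193, 3165 bp downstream of start 4. Its signal was 858 in the pooled data, 426 in replicate 1 (rank 166) and 438 in replicate 2 (rank 116), where the summit fell on the same base. All 13 transcripts span this position as intron, so it stands downstream of every annotated start of the gene. Strong summits thus lay on both sides of start 4 and downstream of start 1, and each of the 3 ranked higher in replicate 2 than in replicate 1.

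The other 3 summits in the IDR list were weaker than the list's median of 219. The summit at 3629738, in an intron of all 13 transcripts 2416 bp downstream of start 4, had a signal of 196 in the pooled data (rank 2643), 88.2 in replicate 1 (rank 3499) and 97.3 in replicate 2 (rank 2794). The summit at 3635651, intronic and 3497 bp upstream of start 4, had a signal of 175 in the pooled data (rank 3149), 75.0 in replicate 1 (rank 4648) and 104 in replicate 2 (rank 2484). It lies 1422 bp from the start of mir-4972, a microRNA gene within *for*. The summit at 3619217 had a signal of 157 in the pooled data (rank 3753), 37.3 in replicate 1 (rank 14095) and 110.3 in replicate 2 (rank 2223). It lay 2857 bp beyond the 3′ end of *for*, in an exon of the neighbouring gene Ugt36A1 and 61 bp from a start site of that gene, so 5 of the 6 summits were within *for* itself.

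**Figure D1:**
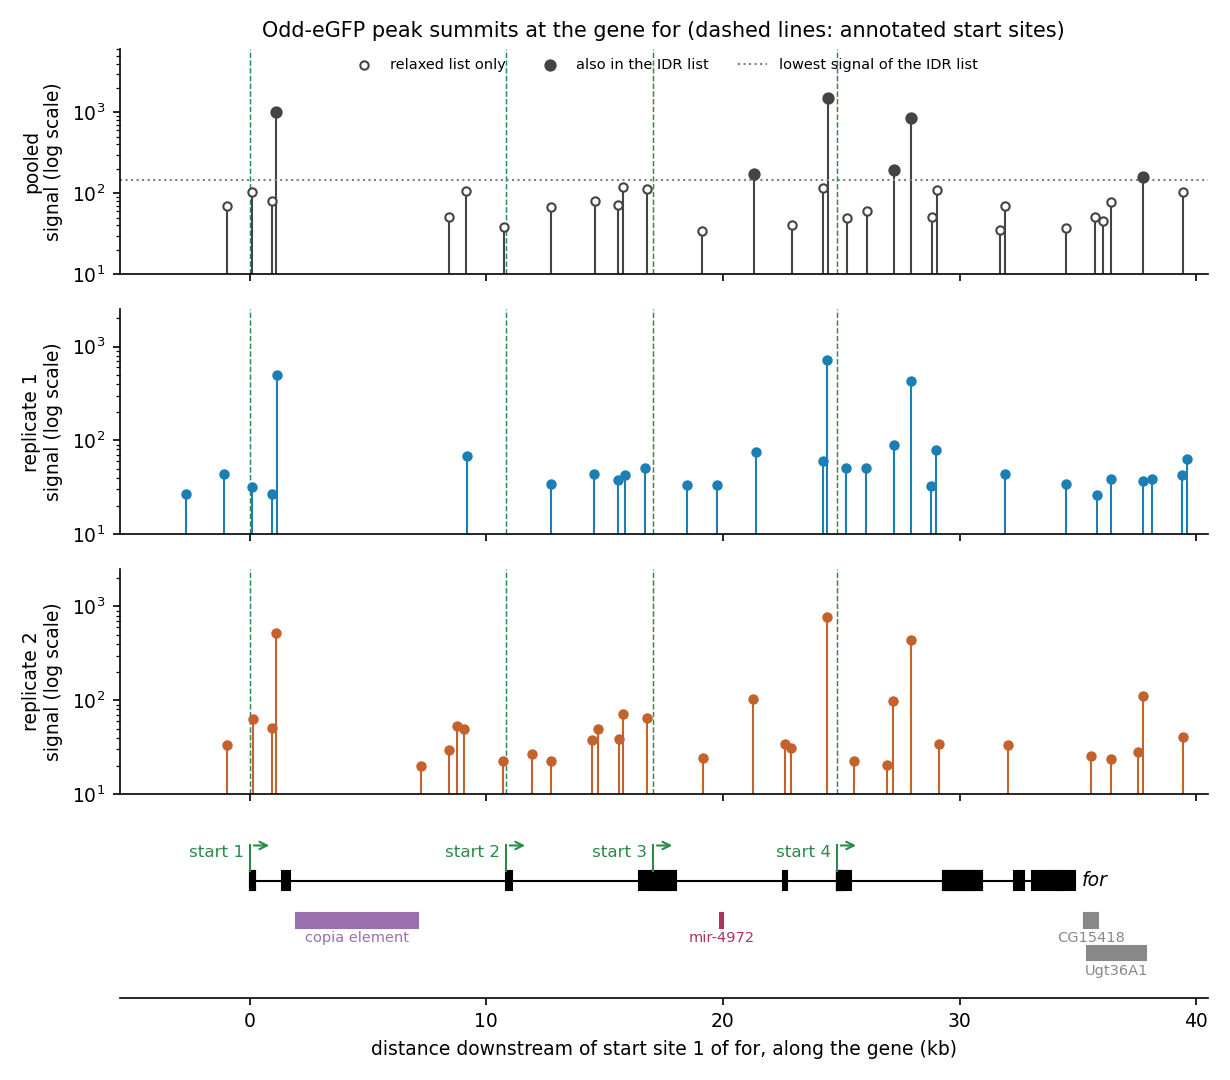
Signal of each summit (log scale, as the authors gave it) in the pooled data and in each replicate against distance downstream of start 1 in kb, above the annotated exons drawn to scale. Filled points in the top panel are in the IDR list. Of the 3 strongest, that of pooled signal 1508 stands 367 bp upstream of start 4 and that of 858 stands 3165 bp downstream of it. The summit of signal 1000.4 stands 1130 bp downstream of start 1. Between the summits of signal 1508 and 1000.4 lie only weaker ones.

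The replicates differed most on the rank of the summit beyond the 3′ end, where the ranks differed 6.34-fold. Over the 3988 IDR summits found in both relaxed lists, the median ratio was 1.42, and 1.18% had a ratio at least as large as 6.34. The ratio was 2.14 at the rank 22 summit, 1.59 at rank 89, 1.43 at rank 139, 1.25 at rank 2643 and 1.87 at rank 3149. A summit was counted as matched when a replicate's summit lay within 100 bp of it. Of the 6 summits, 4 were matched among the 4291 strongest peaks of both replicates, against 66.6% of all IDR summits. The exceptions were 3635651 and 3619217, each matched among the strongest peaks of replicate 2 but not of replicate 1.

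**Figure D2:**
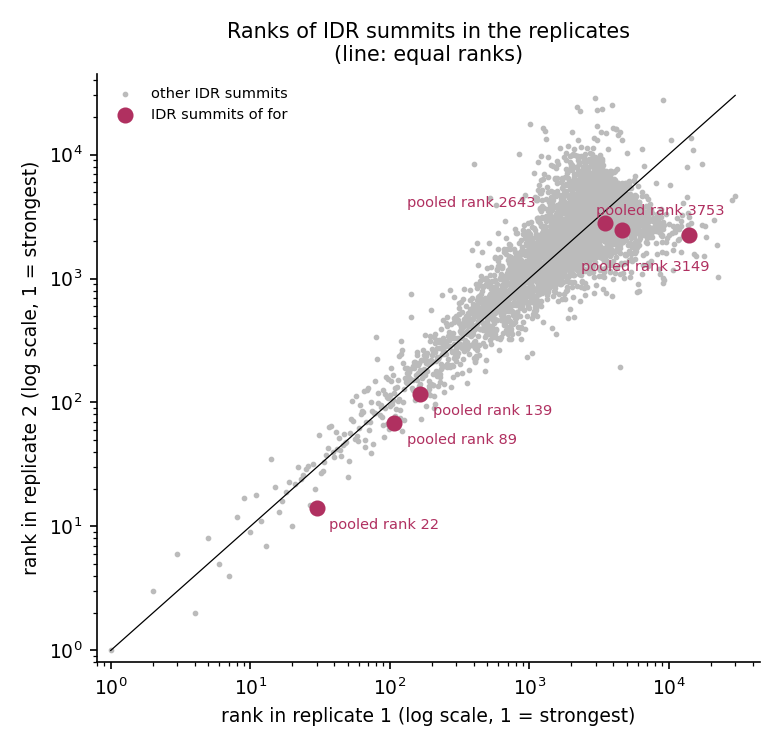
Rank in replicate 2 against rank in replicate 1 for IDR summits, both on log scales, with the summits of *for* in colour and a line at equal ranks. The summit of pooled rank 3753 lies farthest from the line of the 6, at rank 14095 in replicate 1 and 2223 in replicate 2.

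The 4 start sites differed widely in the strongest summit within 500 bp of them. At start 1 it had a pooled signal of 103 (rank 7216, 110 bp away), 31.8 in replicate 1 (rank 17725) and 63.0 in replicate 2 (rank 5825). At start 2 it had a pooled signal of 38.1 (rank 26738, 55 bp away) and 22.8 in replicate 2 (rank 24321), with none in replicate 1. At start 3 it had a pooled signal of 113 (rank 6235, 246 bp away), 50.8 in replicate 1 (rank 8738) and 64.0 in replicate 2 (rank 5686). Start 4, with the rank 22 summit, was the only start of the gene with an IDR summit that close. Counting the starts of any gene, 2 of the 6 summits were within 500 bp of one, the rank 22 summit and the summit at the start of Ugt36A1, as were 45.7% of all IDR summits. The nearest IDR summit was 9685 bp from start 2 and 4269 bp from start 3.

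**Figure D3:**
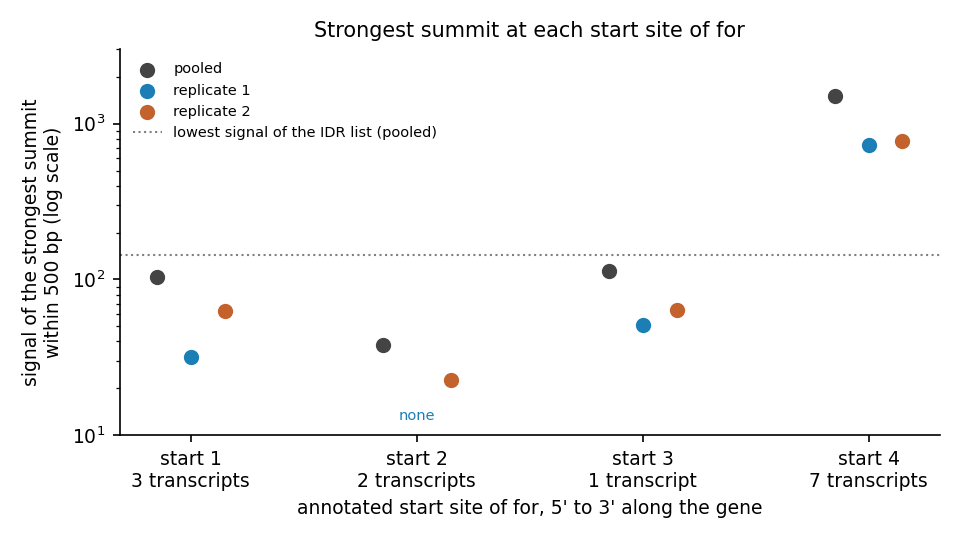
Signal of the strongest summit within 500 bp of each of the 4 start sites of *for*, in the pooled data and in each replicate, on a log scale. The dotted line is the lowest pooled signal of the IDR list, 144. Start 4 stands at 1508 in the pooled data, 727 in replicate 1 and 779 in replicate 2. Every value plotted at the other starts is 113 or lower. Pooled and replicate signals are not on a common scale.

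The relaxed lists, which keep weak peaks and background for the reproducibility comparison, held many more summits at *for*. The pooled relaxed list had 31 summits in the gene and its 5 kb flanks, replicate 1 had 30 and replicate 2 had 32. Of the 31, 17 were matched in both replicates, 12 in 1 of them and 2 in neither, where 45.1% of the 30000 pooled summits were matched in both. The weakest *for* summit in the IDR list had a pooled signal of 157 and the list itself ended at 144. Just outside it were summits at 3641170, with a signal of 120.1 and 1250 bp upstream of start 3, and at 3632720, with a signal of 115 and the same peak boundaries as the rank 22 summit. The next was at 3640166, with a signal of 113. None of these summits reached the strongest 4291 of the pooled list.

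Weak summits were also dense around the gene. At *for* with its flanks there were 6.91 pooled relaxed summits per 10 kb, against a median of 1.75 over the protein-coding genes, and 4.51% of genes had at least as many. The density was not limited to *for*. From 75 kb on the far side of *odd* to 50 kb on the side of *for*, 102 pooled relaxed summits fell in 125 kb, with 111 in replicate 1 and 105 in replicate 2. Arm 2L held 5748 pooled relaxed summits in 23514 kb. That stretch also held 25 IDR summits, those of *for* among them, where arm 2L held 853. The 25 kb next to that stretch on the far side of *odd* held 2 pooled summits and the 25 kb next to it beyond *for* held 4. The limits of the stretch were set after these counts were seen, so its total is not ranked against other stretches. Its least dense 25 kb held 15 pooled summits, and 10.7% of the 25 kb bins of arm 2L held at least as many. Extra copies of this stretch in the tagged line and more binding per copy cannot be told apart from these lists.

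Within *for*, the longest stretch without a pooled relaxed summit ran 7294 bp, from 3648529 to 3655823, between start 2 and the rank 89 summit. An annotated copia transposable element of 5145 bp occupies chr2L:3649843-3654987, inside that stretch. No summit of the pooled list or of either replicate lay in the element. The same held for 99.4% of the 695 annotated elements of at least 5 kb in the pooled list. Whether reads could be placed in the element was not tested.

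Among the 13945 protein-coding genes, 39.8% had an IDR summit in their span or within 5 kb, and 0.882%, or 123 genes, had 6 or more, as *for* did. At a reach of 10 kb, where *for* again had 6, the number of genes with at least as many was 291. Without replicate 2 *for* had 5 summits, and 232 genes had at least as many. When only peaks above the list's median were kept *for* had 3, and 318 genes had at least as many. Per 10 kb, *for* had 1.34 summits, the median over genes with a summit was 0.882, and 1624 genes had at least as many as *for*. Few genes had as many strong summits. When only summits ranked 139 or stronger were kept, 86 genes had at least 1 inside their span, 4 had at least 2 and *for* alone had 3. The limit of 139 was set by the ranks of *for* itself, after the values were seen. With the 5 kb flanks included, CG46468, brwl, jp and ph-p, which are named from that count, also had 3. CG46468, brwl and jp, all on arm 2L, were counted through the same 3 summits, so they are not separate cases. Of those summits, brwl had 1 inside its span, and CG46468 and jp had none. Among the strongest 500 summits, 9 genes had 3 inside their span.

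**Figure D4:**
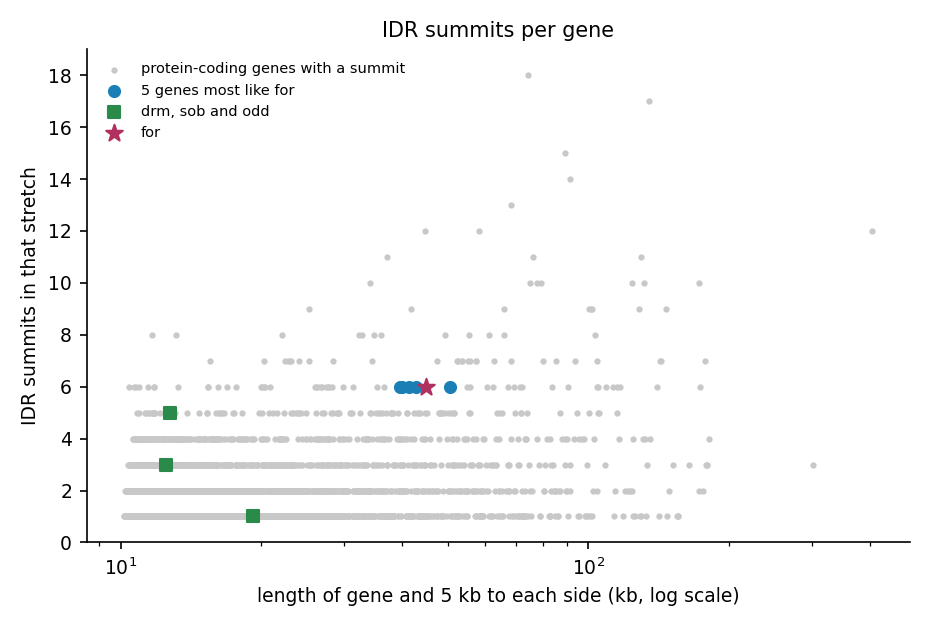
Number of IDR summits in each protein-coding gene and its 5 kb flanks against the length of that stretch, on a log scale, with *for*, its 5 most like genes and *drm*, *sob* and *odd* marked. *for* holds 6 summits, the highest gene holds 18, and many genes of like length hold fewer.

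The 5 genes most like *for* each had 6 IDR summits, and were picked by their likeness in number of summits and in length with flanks. Ptpmeg2, at 1.40 summits per 10 kb, was the nearest, and its 3 strongest summits ranked 111, 262 and 353. The others were aus, Mnt, E2f1 and arr, with strongest ranks of 1692, 583, 1604 and 287. All 5 strongest summits ranked behind the 2 strongest of *for*, which, unlike these genes, was chosen on its ranks.

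Beyond the 3′ end of *for* lie CG15418 and Ugt36A1, and past them the related zinc finger genes *odd*, *sob* and *drm*. The start of *odd* lay 25765 bp from the strongest summit of *for*. In the IDR list, *odd* with its flanks had 3 summits, the strongest at rank 110, *sob* had 5, the strongest at rank 967, and *drm* had 1, at rank 401. The rank 22 and rank 89 summits of *for* were thus stronger than any summit at these 3 genes. Upstream, the start of Drgx was 6922 bp from the nearest IDR summit of *for*.

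Other genes of cyclic GMP signalling were examined in a list of 17 that includes *for*. Guanylate cyclases make cyclic GMP, phosphodiesterases break it down, and cyclic nucleotide-gated channels open when it binds. An IDR summit was found within the gene or 5 kb at 11 of the 17, or 64.7%, beside 39.8% of all protein-coding genes. These shares were not matched for gene length. With flanks, the 17 genes ran from 12877 bp (Gyc89Da) to 124417 bp (Pde1c), and the effect of length was not tested. *for* was chosen on its peaks, and without it the count was 10 of 16. With a reach of 1 kb, 8 of the 17 had a summit, and 6 did when only peaks above the list's median were kept. The 39.8% holds for a reach of 5 kb and the whole IDR list, so it is no background for these counts. Those 11 were *for*, 4 of 7 cyclase genes, 3 of 4 phosphodiesterases and all 3 channels. The cyclase pair Gyc89Da and Gyc89Db was counted through 1 shared summit. The strongest of the others were those of 2 phosphodiesterase genes, Pde1c at rank 108 (115 in replicate 1 and 102 in replicate 2) and Pde6 at rank 217 (232 and 204). Gyc76C, a receptor guanylate cyclase gene, had 3 summits, the strongest at rank 312 (353 and 302) and nearer to the start of SREBP than to its own. The remaining genes with a summit, Pde11, Gycbeta100B, the Gyc89D pair, CngA, CngB and Cngl, had their strongest at ranks 2066 to 3484. Several of these summits were nearer to another gene's start. That of Cngl lay outside the gene, 154 bp from the start of CG9164 and 56618 bp from its own, that of CngB was 667 bp from HmgD and 3639 bp from its own, and that of Pde1c was 2791 bp from CycY and 5054 bp from its own. The other 6 genes had none. Among them were Pkg21D, the other cGMP-dependent kinase gene in the list, whose best pooled rank was 11532, and Nos, the nitric oxide synthase gene, at 10610. The strongest summit of *for*, at rank 22, ranked ahead of all the others in the list.

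Short words were counted in the 201 bp windows around the 6 summits, on both strands, beside all 4291 IDR windows. The Odd word ACAGTAGC was in 0 of the 6, and in 0.862% of IDR windows and 0.419% of windows moved 1000 bp aside. The early embryonic activator word CAGGTAG (Zelda), the promoter word GGTCACAC (M1BP) and the word TATCGATA (DRE) were also in none of the 6. They were rare in all IDR windows too, at 1.26%, 1.40% and 1.93%, so their absence from 6 windows does not set *for* apart. GAGAG, read by GAGA factor, was in 1 of 6, in 27.4% of IDR windows and in 23.0% of windows 1000 bp aside. CGATA, which is contained in TATCGATA and read by the insulator protein BEAF-32, was in 3 of 6, at ranks 22, 89 and 3753. It was in 25.3% of IDR windows and in 21.0% of windows 1000 bp aside. A word missing from these windows says nothing about the protein itself.

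A longer word was found after the windows were read. TACCAATA, capitalised above as its reverse complement, was in 3 of the 6 windows, at ranks 22, 89 and 3149, and in 1.10% of IDR windows and 0.466% of windows 1000 bp aside. It was the only one of 1112 distinct words of that length to occur in 3 windows of *for*. In the direction of transcription its centre lay 19, 52 and 33 bp past the summits, on the strand opposite to *for* each time. The 47 IDR windows with the word had a median rank of 2060, from 22 to 4248. The windows of *for* were between 30.8% and 43.8% G and C, against a median of 36.8% over IDR windows, and 4 of the 6 were below that median.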

How the data were processed

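Lists of peaks from ChIP-seq of 2 biological replicates in 1 group were used as deposited. Per the file headers and the notes deposited with them, the authors called peaks in each replicate against a control, then in both replicates together, and these 3 relaxed lists gave the IDR list. No source used here names the peak caller, the aligner or the IDR cut-off. The deposited signal value of each peak is the authors' enrichment signal and a score only for ranking within a list. The 4 lists on dm6 were used, and 4 on dm3 were not used here. The summit is the peak start plus the deposited offset. Gene models were from Ensembl release 115 and the sequence from the dm6 genome.

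Summits were counted in a gene or within 5 kb, called near a start within 500 bp, and matched between lists within 100 bp. All 4291 peaks of the IDR list were found as the strongest of the pooled list. Genes named beside *for* were its neighbours, the cyclic GMP list and the 5 genes nearest to it in number of summits and length, and 4 genes with 3 strong summits, named after their values were seen. The gene, the lists and the words were chosen with earlier results of these data known. With 1 group no comparison between conditions and no p-value was made, the depth is unknown, and the precision is only the spread of the 2 replicates. Counting was checked on simulated data, with Python 3.11.15, pandas 2.3.3 and numpy 2.4.6.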

Additional observations from a re-analysis of the deposited data

How the results depend on the processing

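Of 64 alternative values for the results at *for*, 52 were classed as the same and 12 as moved. Values classed as the same could still differ. At a reach of 1 kb the cyclic GMP genes with a summit went from 11 to 8. Without replicate 1 the matched summits went from 4 to 6. A reach of 10 kb left 291 genes with at least as many IDR summits as *for*. With a start-site distance of 250 bp, 0 summits and 0 start sites of *for* were left, since the rank 22 summit is 367 bp away. Keeping only peaks above the IDR list's median left 3 summits at *for*, 3 of them in its span, with 318 genes at or above its count, 2727 at or above its density and 6 cyclic GMP genes with a summit. Without replicate 1 or replicate 2, the rank of the strongest summit was 14 to 30, the summits with flanks 5 to 6, those matched 4 to 6, genes at or above its count 124 to 232 and those at or above its density 1697 to 1891. Settings added after seeing the data gave 9 genes with 3 of the strongest 500 peaks in their span and 5 genes within 5 kb. Among those 5, CG46468, brwl and jp were counted through the same summits. The cause of the shifts was not tested beyond the construction of each setting. No paired analysis was possible because there was 1 group. The lists carry signals without read counts, so what depth limits at the weak summits of *for* cannot be given.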
